A study of Homo sapiens with 6 samples.

Results

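The aryl hydrocarbon receptor (AhR) set was taken as 8 genes fixed by name. It comprised the receptor gene AHR, its nuclear partners ARNT and ARNT2, its repressor AHRR and the target genes CYP1A1, CYP1B1, TIPARP and NQO1. Of these 8 genes, 7 had a row among the 24960 genes of the count table used here, and AHRR was not analysed here. RNA came from K562 cells, a human CML line grown in suspension that carries the BCR::ABL fusion. There were 3 libraries from the control group, which the labels call Control, and 3 from the hyperoside (2 mM) group, with 1 cell line and no other allele or agent named for either group. Whether the replicates were separate cultures is not stated, so the p-values measure only the spread between these libraries. The duration of treatment before RNA extraction is not given in the sources used here. Hyperoside is a flavonol glycoside, quercetin 3-galactoside, and the comparison asks whether the receptor gene and the genes AhR controls differed after treatment. Whether hyperoside itself binds AhR was not tested.

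AhR is a ligand-activated transcription factor of the bHLH-PAS family. It waits in the cytosol with HSP90 and p23, moves into the nucleus once a ligand is bound, pairs with ARNT and binds DNA at sites with the core letters GCGTG. Dioxins, tryptophan products and many flavonoids, quercetin among them, are known ligands. The classic readout is induction of the cytochrome P450 genes CYP1A1 and CYP1B1, and AHRR and TIPARP feed back to limit the response. NQO1 is a target of AhR and also of NRF2, the oxidative stress factor that was central to the study.

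The GCGTG core stands near the start sites of several of these genes. RefSeq promoter windows on GRCh38.p14, from 250 bases before to 50 bases after a start site, were matched by symbol for 6 of the 8 genes (9 windows, since TIPARP and AHRR have several). The letters GCGTG, or CACGC for the other strand, were found in 6 of these 9 windows and in 36.5% of all 35116 windows, so the core is common. The 3 windows below are shown because their genes carry the core and had 3 different outcomes in the counts. The capitals mark the core on either strand, and each sequence runs 5′ to 3′ on the gene's own strand. CYP1A1 is read from chr15:74725479-74725778 (minus strand), the first TIPARP window from chr3:156674340-156674639 (plus strand) and NQO1 from chr16:69726511-69726810 (minus strand).
CYP1A1: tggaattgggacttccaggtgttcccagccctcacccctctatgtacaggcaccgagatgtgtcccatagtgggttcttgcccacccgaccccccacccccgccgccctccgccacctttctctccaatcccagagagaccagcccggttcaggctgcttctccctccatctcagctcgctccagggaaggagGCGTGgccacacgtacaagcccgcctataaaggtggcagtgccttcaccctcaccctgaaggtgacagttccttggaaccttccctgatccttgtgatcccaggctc
TIPARP: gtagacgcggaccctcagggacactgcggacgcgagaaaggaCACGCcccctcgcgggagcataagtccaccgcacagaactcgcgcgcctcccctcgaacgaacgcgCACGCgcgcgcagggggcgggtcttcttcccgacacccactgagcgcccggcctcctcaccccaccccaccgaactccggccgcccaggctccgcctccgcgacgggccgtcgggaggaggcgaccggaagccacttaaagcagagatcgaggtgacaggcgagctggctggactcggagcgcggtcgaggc
NQO1: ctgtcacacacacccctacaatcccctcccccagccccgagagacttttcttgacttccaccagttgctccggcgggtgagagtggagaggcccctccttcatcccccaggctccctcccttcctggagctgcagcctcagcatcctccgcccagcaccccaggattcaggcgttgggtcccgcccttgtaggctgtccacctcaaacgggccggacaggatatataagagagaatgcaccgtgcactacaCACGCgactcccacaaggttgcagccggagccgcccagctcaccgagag
Counted from the start site, the first base of the core lay at -57 in CYP1A1, at -208 and -142 in TIPARP and at 1 in NQO1. The second motif searched was the core of the antioxidant response element that NRF2 binds, TGACNNNGC or GCNNNGTCA, which was in 13.3% of all windows and, of the 9 windows, only in that of ARNT. A match of these letters is a description of the window and does not show that a factor was bound. Sites outside the windows were not searched, so a window without a match does not show that its gene lacks the element.

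Sequencing revealed that the receptor gene was hardly read in either group. AHR (chromosome 7, 16916359 to 17346152, plus strand) had 3, 1 and 0 counts in control libraries, against 0, 1 and 0 under hyperoside, here and throughout in the order of replicates 1, 2 and 3. These are libraries of 35613283 to 36754725 counts on genes, in which 3 counts, the level that a count of 0 still allows, correspond to 0.0131 to 0.0135 FPKM for AHR. The groups overlapped. The hyperoside libraries held 0.242 times the AHR level of the control libraries, with an exact 95% interval of 0.00492 to 2.45 that covers counting error only, so no difference was detectable at this depth. In bulk RNA, fewer cells that express a gene and less RNA per cell cannot be told apart.

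ARNT (chromosome 1, 150809705 to 150876768, minus strand), the partner that AhR shares with the hypoxia-inducible factors, was in contrast well expressed. Its level was 20.9, 21.8 and 23.1 FPKM in control libraries, against 21.1, 18.8 and 21.2 FPKM under hyperoside, above 82.1% to 85.0% of the 17107 protein-coding genes. Per length, ARNT was 3696 times as abundant as AHR in the control group (exact 95% counting interval 1443 to 13567, on 4 AHR counts). On the scale of CPM after TMM normalization (normalized CPM), in which counts are scaled to library size, ARNT averaged 111.5 ± 3.17 without hyperoside and 100.04 ± 6.57 with it (SD over 3 libraries). The normalized values did not overlap, yet the log2 fold change of -0.16 (standard error 0.08, 95% interval -0.31 to 0.00) missed the threshold, at 0.1002 for the adjusted p (edgeR, quasi-likelihood test, Benjamini-Hochberg adjustment over 15095 genes). Without control replicate 1 the edgeR adjusted p was 0.0473.

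ARNT2 (chromosome 15, 80404350 to 80597937, plus strand), the second partner gene and one usually associated with neural tissue, was at the floor. It had 0 counts throughout the controls, against 0, 1 and 6 under hyperoside, so 6 of its 7 counts came from hyperoside replicate 3. ARNT was per length at least 5149 times as abundant as ARNT2 in the control group, taking 3 counts over the group as the floor. In the hyperoside group the ratio was 2044 (exact 95% counting interval 992 to 5085). Without a low-count filter, the edgeR adjusted p of ARNT2 was 0.153.

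**Figure D1:**
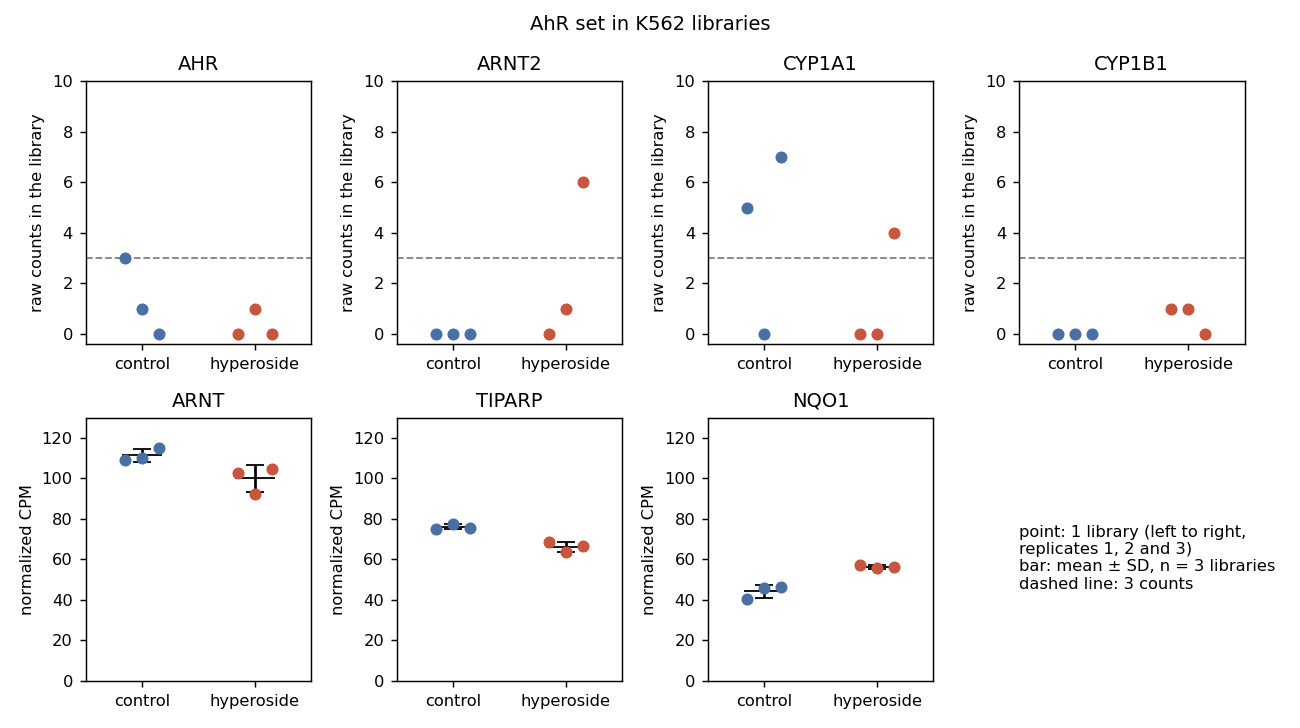
Values of the 7 measured AhR genes in each library. The upper row gives raw counts (vertical axis, 0 to 10) of AHR, ARNT2, CYP1A1 and CYP1B1, with a dashed line at 3 counts, and the lower row gives normalized CPM of ARNT, TIPARP and NQO1 from 0. Each point is 1 library of the control or hyperoside group, and bars are mean ± SD of 3 libraries. No upper panel exceeds 7 counts, and in the lower row the groups separate, with NQO1 higher and TIPARP lower after hyperoside.

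The cytochrome P450 targets, which oxidize polycyclic hydrocarbons and estrogens, gave no sign of induction above the floor. CYP1A1 (chromosome 15, 74719542 to 74725610, minus strand) had 5, 0 and 7 counts in control libraries, against 0, 0 and 4 under hyperoside. Control replicates 1 and 3 had more counts than any hyperoside library, while control replicate 2 had none, so the groups overlapped. The hyperoside level was 0.323 times the control level (exact 95% counting interval 0.0759 to 1.07), and the edgeR adjusted p without a low-count filter was 0.531. CYP1B1 (chromosome 2, 38066973 to 38109902, minus strand) had 0 counts throughout the controls, against 1, 1 and 0 under hyperoside, at or under the floor throughout. For CYP1B1 3 counts correspond to 0.0156 to 0.0161 FPKM, and for CYP1A1 to 0.0314 to 0.0324 FPKM.

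TIPARP and NQO1 were the only target genes of the set with enough reads to test. TIPARP (chromosome 3, 156673235 to 156706770, plus strand) encodes a mono-ADP-ribosyltransferase that modifies AhR and limits its activity. It had 75.2, 77.6 and 75.8 normalized CPM in control libraries, against 68.5, 63.7 and 66.5 under hyperoside. All 3 hyperoside libraries lay below all 3 control libraries, and their mean was 86.9% of that of the controls. Its log2 fold change came to -0.20 (standard error 0.08, 95% interval -0.36 to -0.04), with an adjusted p of 0.0374 in edgeR's quasi-likelihood test. This call was lost in 11 of 14 alternative settings, where the adjusted p reached 0.127 in edgeR without hyperoside replicate 2, although the sign held in every one of the 14. The exons of TIPARP overlap those of TIPARP-AS1 on the other strand, and the use of strand in counting is not given in the sources used here. TIPARP-AS1, named after its values were seen, had 49, 53 and 52 counts in control libraries, against 83, 74 and 85 under hyperoside, against 2341 to 2733 for TIPARP. Its log2 fold change of 0.61 had an edgeR adjusted p of 0.0944.

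NQO1 (chromosome 16, 69706996 to 69726951, minus strand), which encodes a quinone reductase that protects cells from redox cycling, was higher in the hyperoside group. It had 40.5, 45.9 and 46.4 normalized CPM in control libraries, against 57.3, 55.6 and 56.3 under hyperoside. The groups did not overlap, and the hyperoside libraries were the more tightly spaced. The log2 fold change was 0.35 (standard error 0.08, 95% interval 0.17 to 0.53, a fold of 1.12 to 1.44), with an adjusted p of 0.00277 in edgeR's quasi-likelihood test. The call held in all 14 alternative settings, with log2 fold changes of 0.29 to 0.40. In the GENCODE 29 annotation its exons overlap AC092115.2 on the other strand.

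Of the 7 measured genes 3 passed the low-count filter, and of these NQO1 was called higher and TIPARP lower. Over all tested genes 45.3% were called at an adjusted p under 0.05, 22.1% higher and 23.2% lower, and in 54.4% the normalized values of the groups did not overlap. Against this background, 2 calls among 3 tested genes set nothing apart. None of the 3 reached the fold change above 2 that the study required of a DEG, which 10.2% of the tested genes did (6.43% higher and 3.76% lower).

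The order of the expressed genes per length differed between the groups. In the control group ARNT was highest in every library (20.9 to 23.1 FPKM), while TIPARP (16.5 to 17.6 FPKM) and NQO1 (15.4 to 18.5 FPKM) overlapped. In the hyperoside group NQO1 was highest (22.4 to 23.3 FPKM), ARNT followed (18.8 to 21.2 FPKM) and TIPARP was lowest (14.9 to 16.1 FPKM), with no overlap between neighbours. The FPKM ratio of NQO1 to TIPARP within a library was 0.931, 1.02 and 1.06 in control libraries, against 1.45, 1.51 and 1.46 under hyperoside. The log2 ratio differed by 0.55, with p = 0.1 by exact permutation (two-sided), which is as low as 3 libraries against 3 can give. The log2 ratio of TIPARP to ARNT differed by -0.045, with p = 0.5 by exact permutation. A difference between their changes was thus not shown, although only TIPARP was called lower.

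**Figure D2:**
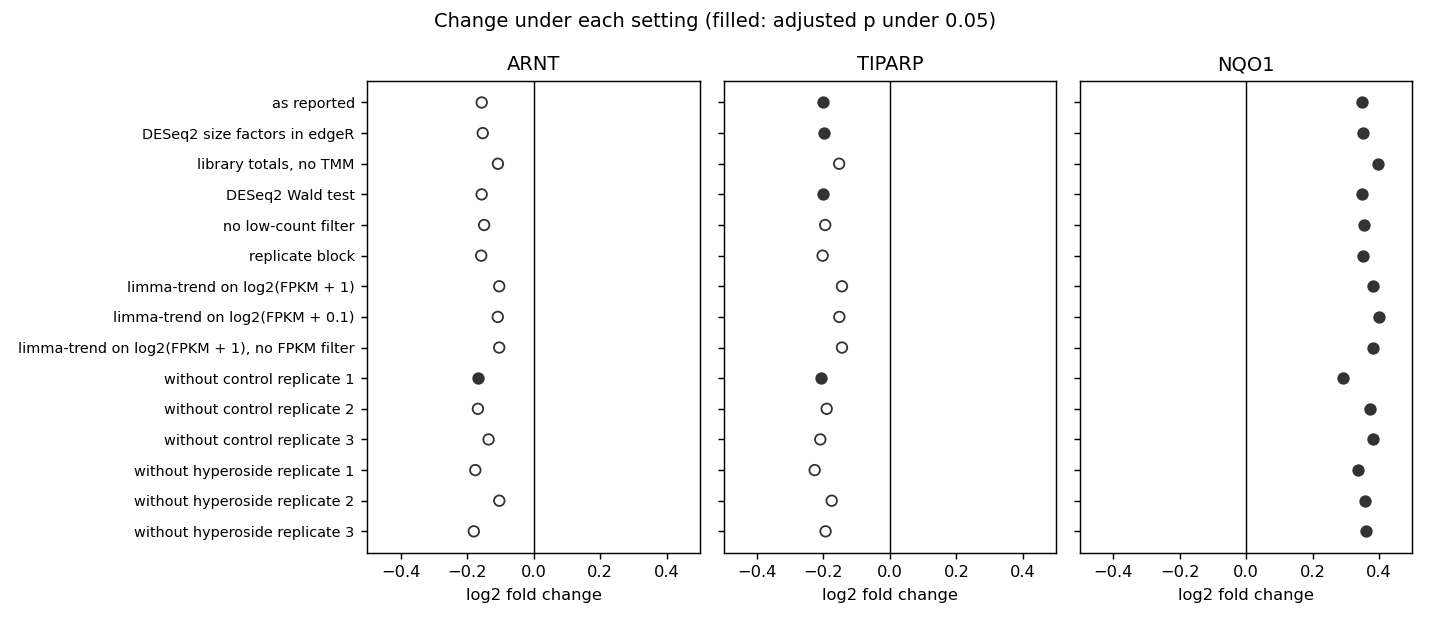
Log2 fold change (horizontal axis, hyperoside over control) of ARNT, TIPARP and NQO1 in the edgeR fit used here (row "as reported") and under 14 alternative settings (vertical axis). Filled points have an adjusted p under 0.05 and open points do not. NQO1 is filled in every row, TIPARP in 4 rows and ARNT in the row without control replicate 1.

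NQO2, the paralogue of NQO1 that also reduces quinones and is known to bind flavonoids, went the other way. NQO2 had 67.4, 55.1 and 59.6 normalized CPM in control libraries, against 32.2, 35.1 and 33.3 under hyperoside. The hyperoside libraries lay at 55.2% of the control mean, and the log2 fold change came to -0.86 (standard error 0.09, edgeR adjusted p = 8.56e-07). The FPKM ratio of NQO1 to NQO2 moved from between 0.446 and 0.618 in the control libraries to between 1.18 and 1.32 in the hyperoside libraries (difference of log2 ratios 1.20, exact permutation p = 0.1, two-sided and as low as it can be).

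Chaperones that hold AhR in the cytosol were read less after hyperoside, while 2 genes of its ubiquitin-dependent turnover differed in sign. Of the 5 genes reported for this cytosolic group, 4 were called lower and 1 higher, beside 23.2% lower and 22.1% higher over all tested genes, and their median log2 fold change was -0.29 against 0.00. HSP90AA1, a chaperone of AhR and of many kinases, fell from 1986 ± 156.4 to 1232 ± 55.5 normalized CPM (mean ± SD of 3 libraries), which is a log2 change of -0.69 (edgeR adjusted p = 4.64e-07). PTGES3, the gene of the cochaperone p23, had a log2 fold change of -0.60 (edgeR adjusted p = 8.92e-07). HSP90AB1, the constitutive HSP90, changed by -0.20 and the ubiquitin ligase STUB1 by -0.29 on the log2 scale, and their calls were lost in 8 and 7 of 14 settings. CUL4B, the scaffold of a ubiquitin ligase reported to contain AhR, rose by 0.45 (edgeR adjusted p = 0.00118), a call lost in 1 of 14 settings. Only 2 of these genes were called lower by limma-trend on FPKM, and likewise by edgeR without control replicate 1, hyperoside replicate 1 or hyperoside replicate 3.

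Among 8 coactivators that AhR-ARNT recruits, 5 were called higher, 1 lower and 2 not called, with a median log2 fold change of 0.46. Over all tested genes 22.1% were called higher and 23.2% lower. The acetyltransferase genes CREBBP and EP300 rose by 0.96 and 0.75 on the log2 scale (edgeR adjusted p = 6.28e-07 and 5.86e-07). NRIP1, which can also act as a corepressor, rose by 0.92 and the Mediator subunit gene MED1 by 0.55. NRIP1 had 29.2, 40.9 and 48.9 normalized CPM in control libraries, against 75.1, 73.7 and 77.1 under hyperoside, so the control group was the more spread. The 1 gene called lower was NCOA3, a p160 coactivator named after its values were seen, at -0.55, and this call was lost in 1 of 14 settings.

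Other bHLH-PAS genes compete with AhR for ARNT or pair among themselves, and EPAS1 stood out among them. Of 11 measured genes 8 were tested, of which 1 was called higher, 1 lower and 6 not called, so 25% were called against 45.3% over all tested genes. EPAS1, the gene of HIF-2α, had 6.06, 7.01 and 6.61 FPKM in control libraries, against 18.4, 17.6 and 17.5 FPKM under hyperoside. Its log2 fold change of 1.39 (standard error 0.08, edgeR adjusted p = 5.57e-10) made it the 1 DEG of this list. HIF1A, the gene of HIF-1α, fell by 0.33 on the log2 scale (edgeR adjusted p = 0.00604), a call lost in 2 of 14 settings (adjusted p = 0.0504 in edgeR without control replicate 2 and 0.0798 in limma-trend without a filter). HIF1A was per length 1.85 to 1.99 times as abundant as EPAS1 in the control libraries and 0.578 to 0.594 times in the hyperoside libraries (difference of log2 ratios -1.72, two-sided exact permutation p = 0.1, the smallest possible). The EPAS1 to ARNT ratio moved from between 0.286 and 0.322 to between 0.829 and 0.931. For HIF1A to ARNT the difference of log2 ratios was -0.16, with an exact permutation p of 0.2. The clock genes ARNTL2 and ARNTL had log2 fold changes of 0.32 and -0.84, with edgeR adjusted p of 0.0805 and 0.177. ARNTL had 29, 8 and 50 counts under hyperoside, and without hyperoside replicate 3 its log2 fold change was -1.49 with an edgeR adjusted p of 0.0472. Without hyperoside replicate 2 it was -0.40, with an edgeR adjusted p of 0.495.

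**Figure D3:**
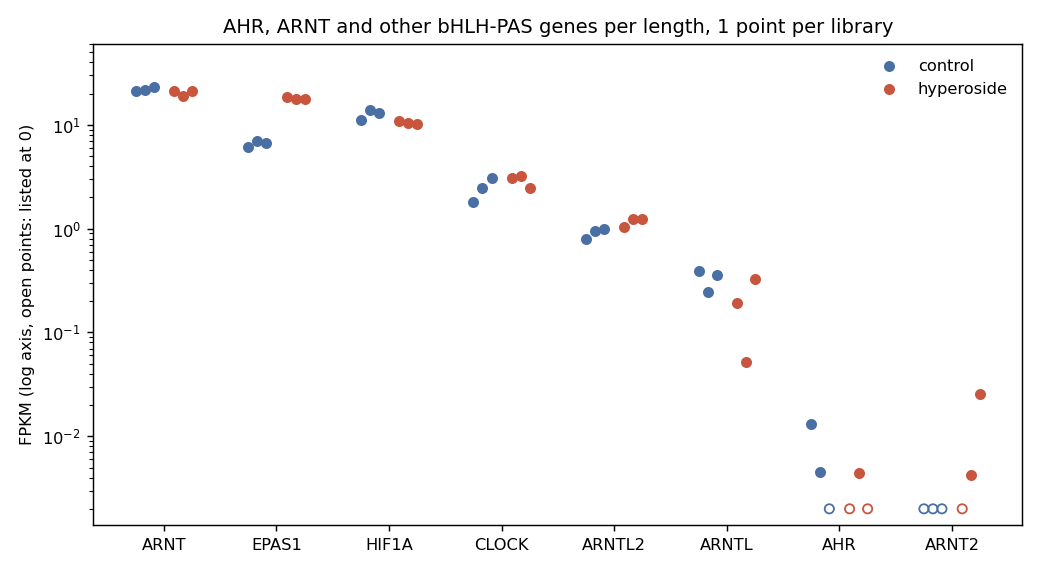
Deposited FPKM (vertical axis, log scale) of AHR, ARNT, ARNT2 and 5 other bHLH-PAS genes, 1 point per library, with open points for values listed at 0. ARNT lies at 18.8 to 23.1 FPKM, EPAS1 lies above HIF1A in the hyperoside libraries and below it in the control libraries, and AHR and ARNT2 lie at or below 0.0257 FPKM in every library.

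Further genes reported elsewhere as AhR targets were also examined, and their reads were mixed in level. Of 14 measured genes 8 were tested, with 6 called lower (4 of them DEGs), 1 higher and 1 not called and a median log2 fold change of -0.88. Over all tested genes 23.2% were called lower, 3.76% were lower DEGs and 22.1% were called higher. The list was chosen with earlier results of these data known, so its counts are a description only. Of the 6 untested genes, UGT1A1 had 0 counts in every library and ALDH3A1 had 1 count in all, both of them detoxifying enzymes of the AhR battery. STC2, the gene of the secreted glycoprotein stanniocalcin 2, fell from 22.4 ± 4.48 to 2.22 ± 0.225 normalized CPM (mean ± SD of 3 libraries), which is a log2 change of -3.33 (edgeR adjusted p = 9.95e-11). AREG, which encodes the EGF receptor ligand amphiregulin, fell by 2.32 on the log2 scale (edgeR adjusted p = 1.03e-08). SLC7A5, the gene of the leucine transporter LAT1, fell by 1.07 (edgeR adjusted p = 6.96e-08). These 3 genes are also known as targets of other factors, ATF4 among them for STC2 and SLC7A5.

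ABCG2, which encodes a drug efflux pump, had 4.83, 3.52 and 4.53 normalized CPM in control libraries, against 0.381, 1.25 and 0.305 under hyperoside. The groups did not overlap, and hyperoside replicate 2 was the highest of its group. The log2 fold change of ABCG2 was -2.72 (standard error 0.39, edgeR adjusted p = 2.16e-05), and -3.63 without hyperoside replicate 2. The 3 further calls were of genes named after their values were seen. NFE2L2, the gene of NRF2 and a reported AhR target, fell by 0.52 and the extrahepatic cytochrome P450 gene CYP2S1 by 0.70 on the log2 scale. The groups overlapped for CYP2S1, and its call was lost in 4 of 14 settings (log2 fold change of -0.99 to -0.46 over all 14). The cell cycle inhibitor gene CDKN1B was higher by 0.27, a call lost in 7 of 14 settings.

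Enzymes that turn tryptophan into AhR ligands or their precursors were partly silent. Of 9 measured genes 5 were tested, of which 3 were called lower, 1 higher and 1 not called, with a median log2 fold change of -0.31, against 23.2% lower and 22.1% higher over all tested genes. KYAT1, an aminotransferase that makes kynurenic acid, fell by 1.23 on the log2 scale (edgeR adjusted p = 6.74e-07). AFMID, the formamidase that releases kynurenine, fell by 0.88 and the second aminotransferase gene KYAT3 by 0.31. KYNU, whose enzyme cleaves kynurenine, rose by 0.39 (edgeR adjusted p = 0.00346). KYNU lost its call in 1 of 14 settings, limma-trend without a filter (adjusted p = 0.0929). The entry enzyme genes IDO1 and IDO2 had at most 6 counts in any library, while that of TDO2 had 24 to 50 and was tested but not called. IL4I1, which encodes an amino acid oxidase, had 5, 3 and 1 counts in control libraries, against 10, 10 and 7 under hyperoside, below the low-count filter. Its groups did not overlap, as was so for 54.4% of the tested genes. Its level under hyperoside was 2.91 times that of the controls (exact 95% counting interval 1.33 to 7.02, counting error only). For KMO, also untested, the groups overlapped and this ratio was 1.78 (exact 95% counting interval 0.602 to 5.85). The adjusted p of IL4I1 without a filter was 0.345 in edgeR, 0.285 in DESeq2 and 0.0336 in limma-trend.

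Most other NRF2 targets had log2 fold changes of the opposite sign to NQO1. Of 17 such genes 16 were tested, of which 10 were called lower, 2 higher and 4 not called, with a median log2 fold change of -0.37, beside 23.2% lower and 22.1% higher over all tested genes. SLC7A11, the cystine transporter gene of the study, fell by 1.90 on the log2 scale (edgeR adjusted p = 1.19e-08). TXNRD1, the gene of cytosolic thioredoxin reductase, fell by 0.62 and MAFG, a DNA-binding partner of NRF2, by 0.59. The 2 genes called higher, as NQO1 was, were SQSTM1, which encodes the autophagy receptor p62, at 1.02 (edgeR adjusted p = 2.69e-08) and SRXN1, the sulfiredoxin gene, at 0.33. SRXN1 was named after its values were seen, its groups overlapped and its call was lost in 4 of 14 settings. NQO1 was tested apart from this list, and whether its change differed from that of the list was not tested.

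**Figure D4:**
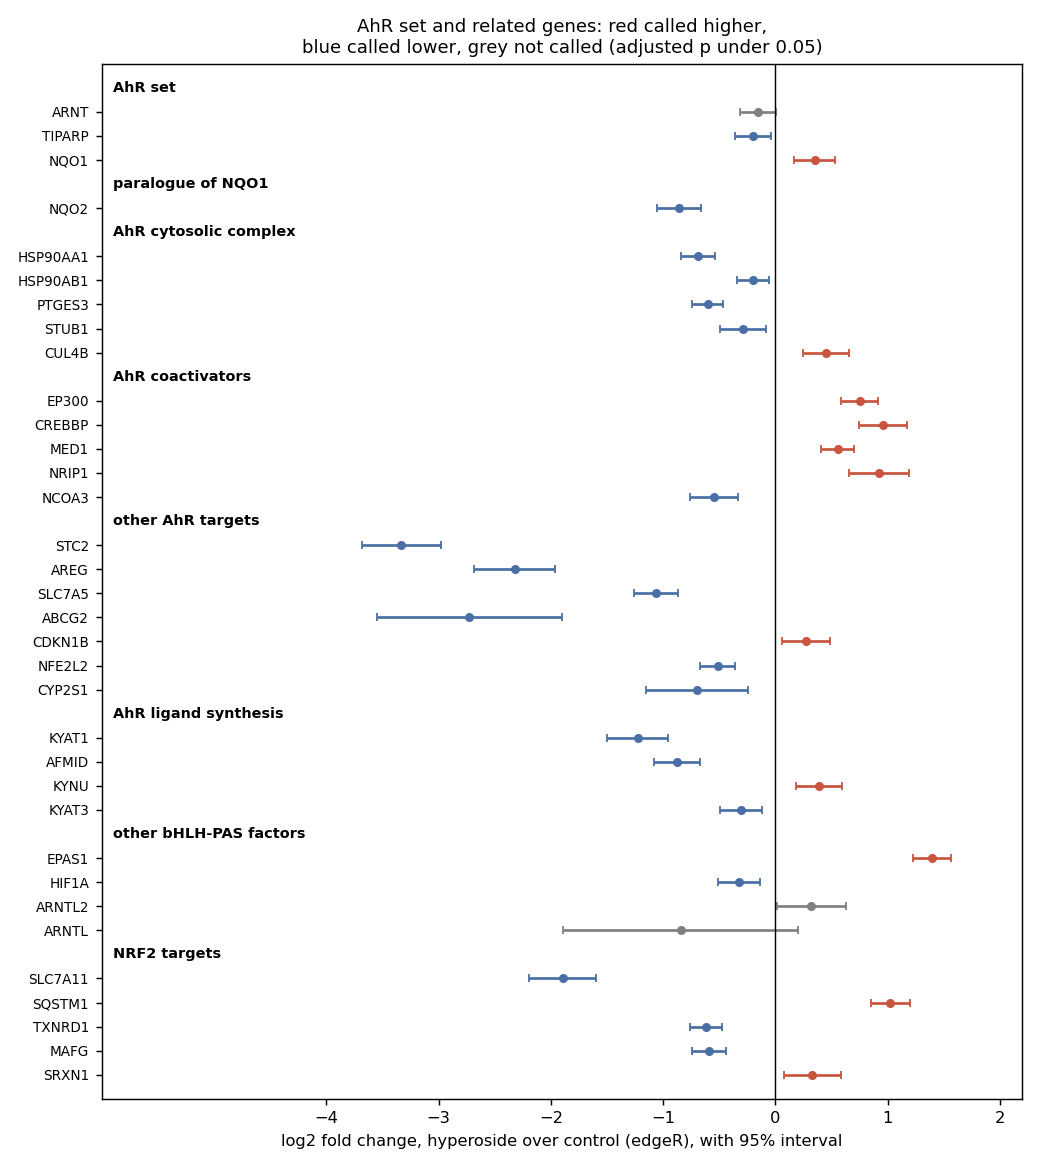
Log2 fold change (horizontal axis, hyperoside over control) with its 95% interval from edgeR for the tested AhR genes, NQO2 and the named genes of each related group (vertical axis). Red points are called higher, blue lower and grey not called at an adjusted p under 0.05. NQO1 and NQO2 lie on opposite sides of 0, and STC2, ABCG2 and AREG lie below -2.

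The library labels were checked against marker genes. All 9 genes that K562 cells are known to express were read in every library. Their summed levels were 7730 to 9565 FPKM in the control group and 5681 to 6865 FPKM in the hyperoside group. The globin gene HBE1 alone averaged 4773 FPKM in the control group and 3605 FPKM in the hyperoside group. KLF1 and TFRC were the 2 called higher, and 4 were called lower. HBZ, TAL1 and the erythroid factor gene GATA1 were not called. Over all tested genes 22.1% were called higher and 23.2% lower. Of 8 T cell, B cell, fibroblast and epithelial genes, 1 was called higher and 2 lower, and their summed level was 87.2 to 95.05 FPKM in the control group and 102.2 to 104.9 FPKM in the hyperoside group. Most of that sum came from EPCAM (49.8 and 50.7 FPKM on average) and CD3D (39.5 and 50.1 FPKM), while MS4A1 had 1 count in all. The part of these markers in the results was not tested.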

How the data were processed

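The 6 K562 libraries, 3 per group, were sequenced after Trizol extraction and VAHTS Universal V6 library preparation. Groups and replicate numbers came from the sample titles and the dose from the paper's text. The authors deposited raw counts per gene and FPKM values, the counts scaled to gene length and library total. The submitters' processing notes name fastp, HISAT2, HTSeq and hg38. Versions, annotation and use of strand are not given in the sources used here.

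The counts went into edgeR 4.0.16 under R 4.3.3 (filterByExpr with a minimum count of 10 and total of 15, TMM, quasi-likelihood test, condition only), which replaced the DESeq package of the study. P-values were adjusted over the 15095 tested genes, and genes were called at an adjusted p under 0.05. The standard error is the log2 fold change divided by the square root of F. DESeq2 1.42.0 and limma 3.58.1 served as alternatives, the latter on log2(FPKM + 1) and log2(FPKM + 0.1) at a mean of at least 0.1 FPKM or with no filter. A positive log2 fold change means higher in the hyperoside group, and fold changes of limma understate those of low genes. Ratios of summed counts carry exact intervals (scipy 1.17.1). Intervals and the floor of 3 counts cover counting error only. Positions and exon overlaps came from GENCODE 29 on GRCh38, and promoters from RefSeq.

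The AhR genes and the related lists were chosen with earlier results of these data known. The counts of every list beside the shares over all tested genes are therefore a description and not a test. The text names all measured genes of the AhR set, NQO2, the cytosolic group and the 4 genes with the smallest adjusted p of each further list. Genes whose profile resembles that of AHR were to be named, but its 5 counts in all gave no profile. The edgeR fit was tested on simulated counts. In that simulation fewer genes changed than were called here, and each changed by more than the tested AhR genes did. The annotation columns of the tables were not used beyond gene type and identifier, and CYP1A2, SIM1 and KRT5 were not analysed here. 1 gene of the cytosolic group is not reported here and was left out of its counts.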

Additional observations from a re-analysis of the deposited data

How the results depend on the processing

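None of the results compared over 14 alternative settings changed sign, and the call of NQO1 was kept in each. The call of TIPARP was lost with library totals in place of TMM (log2 fold change -0.15), without the low-count filter (-0.19), with a replicate block (-0.20, edgeR adjusted p = 0.0929) and with limma-trend on log2(FPKM + 1) (-0.14, with or without a filter) and log2(FPKM + 0.1) (-0.15), so that 0 AhR genes were called lower in these 6 settings. At an unadjusted p under 0.05 TIPARP passed in 5 of the 6, all but that with library totals. With 1 library left out, TIPARP lay between -0.23 and -0.18, ARNT between -0.18 and -0.10, and 0 to 2 AhR genes were called lower. ARNT gained a call without control replicate 1 (edgeR adjusted p = 0.0473).

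Among the related lists, limma-trend called 2 genes of the cytosolic group lower in each of its 3 settings. Without a filter it called 0 higher there, 0 coactivators lower, 0 bHLH-PAS genes lower, and 1 NRF2 target higher and 6 lower. The replicate block and each limma-trend setting called 0 other AhR targets higher. With 1 library left out, the calls were 2 to 4 lower in the cytosolic group, 0 to 1 higher among other targets, 1 to 2 higher and 0 to 2 lower among bHLH-PAS genes and 1 to 2 higher among NRF2 targets. The cause of these changes was not tested.

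Over all genes, 2700 to 3726 were called higher and 2346 to 3618 lower, against 3333 and 3508 in the edgeR fit used here. DEGs numbered 970 higher and 567 lower in that fit, which are not the counts given by the study. They numbered 209 and 137 on log2(FPKM + 1), or 204 and 137 without a filter, a scale that shrinks the fold changes of low genes. Same-numbered libraries did not deviate together (correlations of -0.195, -0.0374 and -0.0239), so the numbers were not read as pairs, and the replicate block called 3026 genes higher and 3103 lower. AHR, ARNT2, CYP1A1 and CYP1B1 had too few counts to test at this depth, with 3 counts per library as the floor. In GENCODE 29 the exons of AHR, ARNT2 and CYP1B1 overlap those of other genes. The use of strand in counting is not given, and the part of these overlaps in the low counts was not tested.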
